A study of Homo sapiens with 18 samples.

Results

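The response of IMR90 cells to an oxidant was followed in cells that had been pre-incubated with PBS, the vehicle, and had received no added hyaluronan. IMR90 is a line of human lung fibroblasts. The comparison held 6 of the 18 libraries of the series, chosen by their labels alone: 3 from cells collected at the end of a 6 h pre-incubation with PBS, and 3 from cells that after the same 6 h were exposed to 200 µM tert-butyl hydroperoxide (tBHP) for 1 h and were collected 5 h later. Of 56269 genes in the table, 13686 averaged 10 or more in deposited normalized counts across the 18 libraries, and these were tested. The remaining 12 libraries came from cells given 20 µg/ml of a hyaluronan before the same steps, either cNSF, the intact control preparation from naked mole-rat skin fibroblasts, or fNSF, the same material after partial fragmentation. No library came from cells kept for the same further 6 h without tBHP. Per the study, the medium of the pre-incubation was removed before tBHP was given. The oxidant, this change of medium and the added time in culture therefore cannot be told apart in any value below. IMR90 is a single line. The study's methods describe all replicates as biological, the labels do not say how the cultures were separated, and p-values measure the spread between these samples.

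tBHP is an organic peroxide that oxidizes glutathione and forms radicals in the cell. Fibroblasts answer such damage along several known routes. Oxidation of the sensor KEAP1 frees the transcription factor NRF2, which turns on genes for glutathione and thioredoxin metabolism. DNA damage stabilizes p53, which turns on genes that stop the cell cycle or start apoptosis. Kinases of the integrated stress response phosphorylate the initiation factor eIF2, which lowers protein synthesis while the factor ATF4 and its partner CHOP are made and turn on genes for amino acid supply.

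The 3 libraries without tBHP held 22852097, 23704287 and 25416049 reads assigned to genes, and those with tBHP held 20690497, 21036981 and 20823759. Replicates were closer together without tBHP, with a median SD per gene of 0.069 on the log2 scale, than with it, with 0.155. The first principal component of all 18 libraries carried 61.0% of the variance, and the PBS libraries without tBHP lay at its negative end and those with tBHP at its positive end, replicate 1 with tBHP the farthest. All 11 fibroblast markers were tested, and their summed normalized counts were 596000 to 617000 without tBHP and 591000 to 723000 with it. The sum rests mostly on a few abundant genes such as COL1A1, and singly PDGFRB was called higher, LUM, FAP, COL3A1 and DCN lower, and the other 6 were not called. For 8 epithelial markers the sums were 10.3 to 14.5 and 2.27 to 13.1, with KRT5, SFTPC, SFTPB, SCGB1A1 and MUC5B at 0 in the 6 libraries, and for 7 immune markers they were 4.67 to 6.05 without tBHP and up to 17.0 with it. Sums of 6 endothelial markers, with PECAM1 and CDH5 at 0, were 1290 to 1330 and 985 to 1020, and those of 4 pericyte and smooth muscle markers were 8050 to 8260 and 9550 to 14100. Of the endothelial markers TEK, with the highest mean, was called lower and VWF higher. The part of other cell types in the results was not tested. In bulk samples fewer cells of a kind and less RNA per cell cannot be told apart.

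With tBHP 3317 genes rose and 3678 fell, 24.2% and 26.9% of the genes tested (limma, adjusted p under 0.05). A log2 change of at least 1, a doubling, was reached by 532 of the genes that rose and 684 of those that fell, which were 3.89% and 5.00% of the genes tested. In 31.8% of the genes the 3 libraries with tBHP all lay above the 3 without, and in 32.0% all below. The counts of every gene list below are to be read against these 24.2% and 26.9%. Without replicate 1 with tBHP, the library farthest from the other 2, 2833 genes rose and 3183 fell. With edgeR on the recovered reads, which changed the scaling and the test together, the median log2 change was higher by 0.068, and 4058 genes were called higher and 3223 lower. With median ratio scaling alone the counts were 3322 and 3675, and with quantile normalization alone 3431 and 3619.

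**Figure D1:**
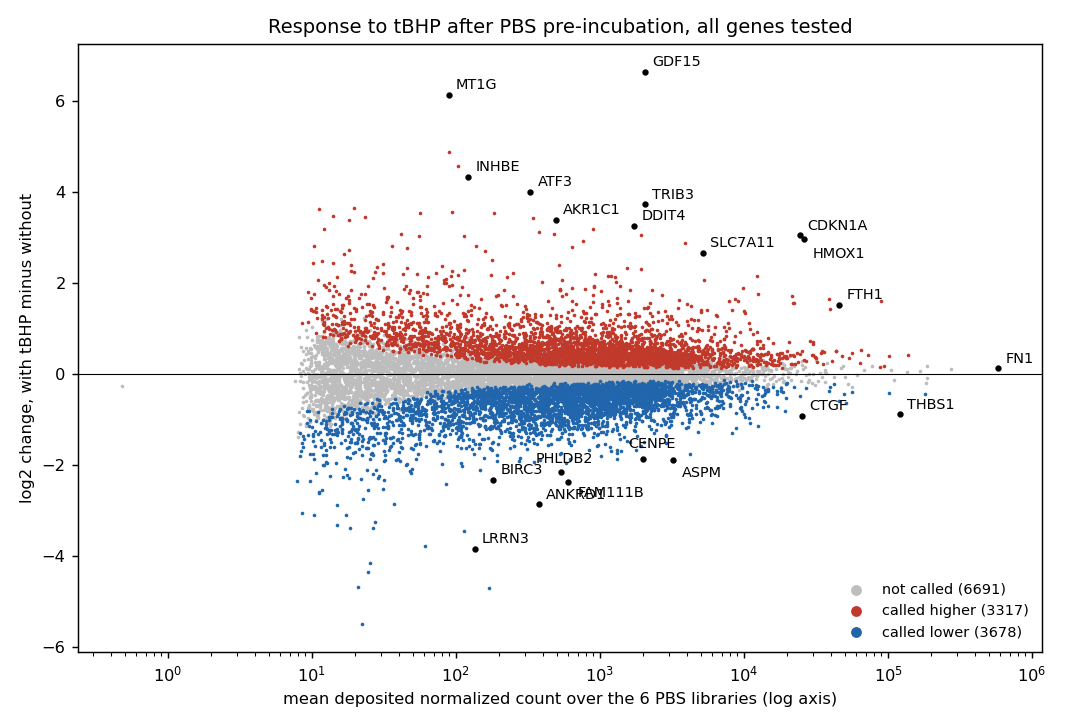
Log2 change with tBHP (vertical axis) against the mean deposited normalized count of the 6 PBS libraries (horizontal log axis), 1 point per gene tested, red for the 3317 genes called higher, blue for the 3678 called lower and grey for the rest. The rises reach 6.65 in GDF15, and LRRN3 lies at -3.83.

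The 20 largest rises (clone names left out), among genes that averaged 100 or more across the 18 libraries and had no overlap between the groups, spanned log2 changes from 2.71 to 6.65. That mean takes in the libraries with tBHP, so genes that are low without it, such as INHBE and G0S2, could pass. Of these 20 genes 8 were on a list of ATF4 and CHOP targets, 5 on a list of p53 targets and 3 on a list of NRF2 targets, and 5 were on none of the 3. Those 5 were G0S2, an inhibitor of the triglyceride lipase ATGL, ADM2, a peptide hormone of the calcitonin family, NDRG1, a stress-induced cytoplasmic protein, BMP6, a bone morphogenetic protein, and PANX2, a pannexin. G0S2 measured 26.1, 27.1 and 31.1 without tBHP and 399, 293 and 324 with it in the 3 libraries each, in deposited normalized counts, a log2 change of 3.54 (SE 0.26, adjusted p = 7.24e-09). NDRG1 rose from 924 ± 74.8 to 6889.8 ± 824 normalized counts (SD, n = 3) and BMP6 from 33.3 ± 4.60 to 240.2 ± 17.4. In each of these 20 genes the lowest library with tBHP stood above the highest without, which the choice of the genes had required.

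GDF15, a secreted member of the TGF-beta family that rises in many stressed cells, had the largest rise of these. It lies at chr19:18374731-18389176 on the plus strand (GRCh38). Its normalized counts were 35.7, 42.9 and 37.2 without tBHP and 5341, 3213 and 3629 with it, far apart in every library. Next came INHBE, which encodes an activin subunit, with 11.6, 7.46 and 13.0 without tBHP and 258, 199 and 237 with it. INHBE changed by 4.34 on the log2 scale (SE 0.29), ATF3 by 4.01 (SE 0.13) and TRIB3 by 3.74 (SE 0.12), so that these neighbours in the order lay close together beside their errors.

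**Figure D2:**
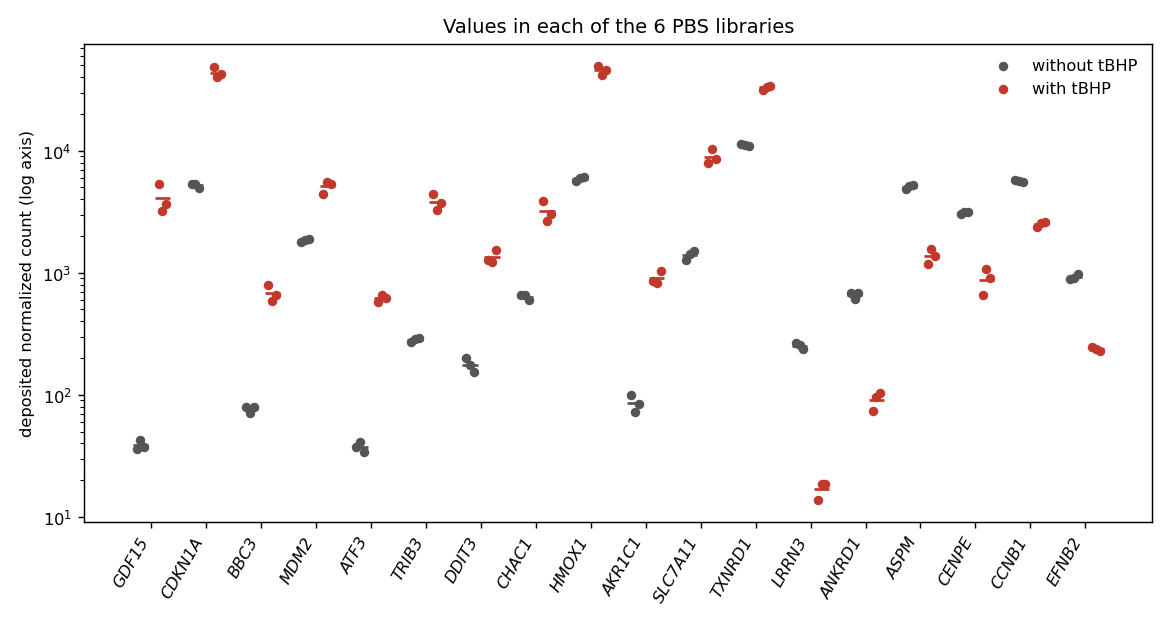
Deposited normalized counts (log axis) of 18 genes in each of the 3 libraries without tBHP (grey) and the 3 with it (red), with short bars at the group means. For every gene drawn the groups do not overlap, and the spread between replicates is small beside the step between groups.

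ATF4 and CHOP targets rose together. Of 29 measured members of the list 29 were called higher and 0 lower, with a median log2 change of 1.94 against 0.00431 over all genes tested, and 26 of them rose by at least 1. ATF3, a factor of the ATF family that ATF4 induces, stood at 37.7, 41.1 and 33.7 without tBHP and 571, 662 and 623 with it. TRIB3, a pseudokinase that binds AKT and restrains ATF4, gave 270.4, 285 and 292 without tBHP and 4388, 3262 and 3756 with it. DDIT3, which encodes CHOP itself, averaged 7.62 times its untreated level with tBHP, from 177 ± 23.1 to 1347 ± 155 (SD, n = 3). Both factors and brakes of the response were thus among the genes that rose. DDIT4, an inhibitor of the kinase complex mTORC1, rose by a log2 change of 3.27 (SE 0.12, adjusted p = 9.41e-13). SESN2, a leucine sensor that also restrains mTORC1 and is a p53 target too, rose by 3.06 (SE 0.11, adjusted p = 9.41e-13). CHAC1, which breaks down glutathione, had 652, 654 and 603 without tBHP and 3871, 2669.6 and 3026 with it, with replicate 1 the highest of the treated libraries. ULBP1, a stress ligand for natural killer cells, rose by 3.05.

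Transcripts of genes for amino acid supply mostly rose too. On a list of genes for amino acid synthesis and transport, 9 of which are ATF4 targets too, 21 of 23 measured members were called higher and 2 lower, with a median log2 change of 1.45. SLC7A11, the cystine carrier of the exchanger that feeds glutathione synthesis, stood at 1268, 1430.5 and 1501 without tBHP and 7894, 10309 and 8602 with it. SLC6A9, a glycine carrier, rose by 2.79, CTH, which makes cysteine from cystathionine, by 2.38, and SLC1A4, a neutral amino acid carrier, by 1.92. SLC7A5, the large neutral amino acid carrier and the member with the highest mean, rose from 10023 ± 30.0 to 33367 ± 5157 normalized counts. The members that fell were ALDH18A1, the first enzyme of proline synthesis, with -0.49, and SLC38A2, a glutamine carrier, with -0.40. The fall of SLC38A2 was not called without replicate 1 with tBHP, where its log2 change was -0.30, nor with GC and length trends removed, where it was 0.03. Of 20 cytosolic tRNA synthetases 13 were called higher and 3 lower, with a median of 0.37. CARS rose by 1.45, AARS by 1.27, WARS by 1.19 and GARS by 1.13, while FARSB, a subunit of the phenylalanine enzyme, fell, with a log2 change of -0.81.

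The DNA before the starts of these genes was read for the letters of the C/EBP-ATF element, TGATGNAA, which dimers of ATF4 or CHOP with C/EBP factors bind. In windows from 250 bases before to 50 after each start (RefSeq, GRCh38.p14, both strands), it was found for 6 of 25 ATF4 and CHOP targets with a window (24.0%), and for 2.67% of the 9700 genes tested that have one. A match is a description of the letters and not of binding. A stretch of 150 bases from the window is shown for 2 members as examples, with the element in capitals.
ASNS: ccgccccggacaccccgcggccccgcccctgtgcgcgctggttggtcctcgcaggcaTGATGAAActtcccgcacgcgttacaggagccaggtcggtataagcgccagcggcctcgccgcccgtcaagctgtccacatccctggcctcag
CHAC1: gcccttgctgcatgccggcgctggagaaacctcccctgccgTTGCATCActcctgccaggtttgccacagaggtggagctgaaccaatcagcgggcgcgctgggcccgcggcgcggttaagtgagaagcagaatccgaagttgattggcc
The first is chr7:97872384-97872533 on the minus strand, from the promoter of asparagine synthetase, with TGATGAAA at position -68 from the start, and the match overlaps one to the heat shock letters given below. The second is chr15:40953221-40953370 on the plus strand, with the element in the reverse direction as TTGCATCA at position -209. ASNS measured 1763, 1779 and 1658 without tBHP and 4904, 5411 and 5845 with it, a log2 change of 1.63 (SE 0.08, adjusted p = 3.52e-11).

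p53 targets rose as a group with a few falls. On this list 36 of 43 measured members were called higher and 4 lower, with a median log2 change of 0.93. CDKN1A, the cyclin-dependent kinase inhibitor p21 at chr6:36676460-36687339 on the plus strand, was already abundant and measured 5346, 5379 and 4968 without tBHP and 48647, 39991 and 42174 with it. BBC3, the BH3-only killer protein PUMA, gave 79.2, 70.9 and 79.6 without tBHP and 799, 584 and 652 with it. BTG2, an antiproliferative adaptor of mRNA deadenylation, gave 84.0, 113 and 102 without tBHP and 848, 763 and 949 with it. In all 3 genes every treated library stood at several times the level of every untreated one. MDM2, the ubiquitin ligase that removes p53, rose from 1849 ± 48.0 to 5109 ± 598 (SD, n = 3), or by 1.46 on the log2 scale (SE 0.12, adjusted p = 2.95e-08). TP53INP1, a nuclear regulator of p53 and autophagy, rose by 1.72, and PLK3, a stress-activated Polo-like kinase, by 1.57. CCNG1, PERP and PLK2 were among those that fell, at -0.44, -0.36 and -0.35 on the log2 scale. With GC and length trends removed CCNG1 and PERP changed by -0.02 and -0.08 and were not called.

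In the BCL2 family 10 of 17 measured genes were called higher and 2 lower, and with GC and length trends removed 9 and 4, beside 24.2% higher and 26.9% lower over all genes tested. Besides BBC3, the BH3-only genes BMF and PMAIP1 rose by 1.30 and 1.16, and the survival gene BCL2L1 rose by 0.86. BCL2, the founding survival gene, fell from 81.4 ± 5.97 to 30.1 ± 5.51 normalized counts (SD, n = 3), and its relative BCL2A1 fell from 20.3 ± 6.78 to 7.37 ± 1.69. BCL2A1 may have passed the minimum mean of 10 only through libraries where it is high, so its call adds nothing to the count. Of 24 death receptor and caspase genes 9 were called higher and 3 lower, and with GC and length trends removed 10 and 6 of 23, beside the same shares over all genes. The TRAIL receptors TNFRSF10A and TNFRSF10B rose by 2.15 and 1.38, and TNFRSF10B measured 2842, 2772 and 2785 without tBHP and 7378, 7199.7 and 7245 with it. In base and nucleotide excision repair 8 of 30 genes were called higher and 9 lower, shares near the 24.2% and 26.9% of all genes tested, and with GC and length trends removed 5 and 12. DDB2 and XPC, the damage sensors of nucleotide excision repair and p53 targets, rose by 1.39 and 1.05, while UNG, the uracil glycosylase, and XPA, a scaffold of the same excision pathway, fell, with log2 changes of -1.14 and -1.09.

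NRF2 targets rose with no exception past the threshold. Of 30 measured members 29 were called higher and 0 lower, with a median log2 change of 1.23. AKR1B10, and SRXN1 whose values are given further below, may have passed the minimum mean only through libraries with tBHP, where they are high. Their calls therefore add nothing to the count. HMOX1, heme oxygenase 1 at chr22:35380361-35394214 on the plus strand, measured 5631, 5999.9 and 6046 without tBHP and 49750.1, 41987 and 46141 with it. The groups were far apart. Of the aldo-keto reductases, which reduce reactive aldehydes, AKR1B10 rose from a low level, with 6.76, 11.2 and 6.92 without tBHP and 104, 98.0 and 113 with it, and AKR1C1 gave 99.5, 72.8 and 84.7 without tBHP and 858, 829 and 1033 with it. The AKR1C genes are close copies of each other, so reads may be split between them. OSGIN1, an oxidative stress growth inhibitor, rose by 3.20 (SE 0.17, adjusted p = 1e-10). TXNRD1, cytosolic thioredoxin reductase, measured 11253, 11216 and 11020.2 without tBHP and 31629, 33509.8 and 33973 with it, and NQO1, a quinone reductase, 3778, 3792 and 3586 without tBHP and 8726, 9186 and 9438 with it. FTH1, the ferritin heavy chain with the highest mean on the list, rose from 23599 ± 512 to 68204 ± 3350.0 normalized counts (SD, n = 3). GCLM and GCLC, encode the 2 subunits of the enzyme that begins glutathione synthesis: GCLM rose by 0.96 (SE 0.10), and GCLC, the member that was not called, changed by 0.17 (SE 0.09, adjusted p = 0.143), a rise that was called by edgeR and without replicate 1 with tBHP, where it was 0.26.

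The letters TGACNNNGC of the antioxidant response element, which NRF2 binds with small MAF proteins, were found near the starts of 7 of 22 NRF2 targets (31.8%) and of 19.5% of the genes tested. The share was 36.0% in ATF4 and CHOP targets and 28.6% in p53 targets, so the letters were not particular to the NRF2 list. Stretches of 150 bases from the windows of 2 members are given to show where they lie, with the letters in capitals on either strand.
TXNRD1: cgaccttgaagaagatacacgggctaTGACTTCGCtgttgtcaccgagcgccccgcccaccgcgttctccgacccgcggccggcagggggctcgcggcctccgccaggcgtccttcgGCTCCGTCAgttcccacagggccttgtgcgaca
GCLM: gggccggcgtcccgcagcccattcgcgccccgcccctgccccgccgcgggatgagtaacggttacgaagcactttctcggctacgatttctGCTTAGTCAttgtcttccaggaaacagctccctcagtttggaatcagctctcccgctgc
The stretch of TXNRD1 is chr12:104215654-104215803 on the plus strand, with matches at positions -99 and -8 from a start, and that of GCLM is chr1:93909406-93909555 on the minus strand, with 1 match at position -34.

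Antioxidant enzymes as a wider list were mixed. Of 26 measured enzymes, of which TXNRD1, TXN, GSR and PRDX1 are on the NRF2 list too, 11 were called higher and 5 lower, with a median of 0.24. GPX3, the secreted glutathione peroxidase, rose from 20.3 ± 1.13 to 75.5 ± 9.13 normalized counts (SD, n = 3), GSR, glutathione reductase, by a log2 change of 1.34 and SOD3, the extracellular superoxide dismutase, by 0.80. The 4 largest falls were those of MSRB3, a methionine sulfoxide reductase, with -0.70, GPX8, a peroxidase of the endoplasmic reticulum, with -0.68, PRDX3, the mitochondrial peroxiredoxin, with -0.66, and GLRX2, a glutaredoxin, with -0.48, which was 0.04 with GC and length trends removed. SOD3 was then not called, and the median of the list was 0.0964.

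A list of metallothioneins, small proteins that bind zinc and copper, and of zinc export genes had 8 measured members, of which 5 were called higher. MT1G, MT1M and MT1F passed the minimum mean only through libraries with tBHP, where they are high, so they had to differ, and the count supports nothing about the list. MT1G had 1.93, 0.933 and 1.73 without tBHP and 211, 145 and 175 with it, with 3 untreated libraries at the edge of detection, so that the log2 change of 6.14 depends on the pseudocount. MT1M had 1.93, 0.933 and 0.00 without tBHP and 23.8, 16.3 and 24.1 with it. MT1X rose from 91.8 ± 7.91 to 338 ± 61.7 (SD, n = 3), with a 3.68-fold ratio of means. MT2A, with the highest mean, measured 21184, 17065 and 19976 without tBHP and 28541, 20187 and 20056 with it, and its groups overlapped. The metallothionein genes are close copies, and their reads may be split between them.

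Chaperones were on 2 lists. In the endoplasmic reticulum 14 of 20 measured genes were called higher and 0 lower, with a median of 0.51. HSPA5, the chaperone BiP, measured 21677, 21037 and 21497 without tBHP and 57496, 56649.6 and 59517 with it. HERPUD1, a membrane protein of the degradation machinery, rose by 1.40 (SE 0.06), XBP1, a transcription factor of the unfolded protein response, by 1.14 (SE 0.06), and SYVN1, a ubiquitin ligase, by 1.07 (SE 0.09). Of 22 heat shock genes, most but not all of them cytosolic, 16 were called higher and 4 lower, with a median of 0.41. HSPB8, a small heat shock protein that works with BAG3 in autophagy, measured 488, 495 and 437 without tBHP and 2032, 2076 and 2131 with it. CRYAB, alpha-B crystallin, rose by 1.31. HSPA8, the constitutive HSC70 and the most abundant member, fell, with a log2 change of -0.38, with 63605, 64164 and 62796 without tBHP and 47042, 49558 and 49431 with it, and HSPE1, the mitochondrial co-chaperonin, fell, at -0.66, which was -0.48 and not called without replicate 1 with tBHP.

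The heat shock letters GAANNTTC were found near the starts of 10 of 19 of these heat shock genes (52.6%) and of 6.57% of the genes tested. The window of HSPB8, the member with the largest rise, holds them at positions -88 and 4 from the start. The stretch of 150 bases shown from it is chr12:119178806-119178955 on the plus strand.
HSPB8: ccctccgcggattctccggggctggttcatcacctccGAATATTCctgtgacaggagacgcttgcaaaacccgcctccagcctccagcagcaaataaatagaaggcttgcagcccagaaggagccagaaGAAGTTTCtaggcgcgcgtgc

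Immediate early transcription factors, which respond within minutes to growth factors and stress, were raised 5 h after the oxidant was removed. Of 23 measured members 21 were called higher and 1 lower, with a median of 0.91, or 0.56 with GC and length trends removed. NR4A3, an orphan nuclear receptor, measured 9.66, 19.6 and 14.7 without tBHP and 99.9, 76.2 and 54.7 with it, KLF4, a Kruppel-like factor, 133, 181 and 151 without tBHP and 692, 597 and 604 with it, and FOSB, an AP-1 subunit, 33.8, 29.9 and 32.0 without tBHP and 136, 110.0 and 149.9 with it. FOSL1, the AP-1 subunit with the highest mean, rose by only 0.33 (SE 0.10, adjusted p = 0.0082), and its log2 change was 0.00 with the trends with GC content and length removed. SRF, the serum response factor, fell, with a log2 change of -0.35. Of 14 feedback inhibitors of MAP kinases 7 were called higher and 1 lower (7 and 3 with GC and length trends removed), with SPRY4 up by 1.16 and DUSP5 by 1.05, and SPRED1 lower with a log2 change of -0.47, or -0.09 and not called with the same trends removed.

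Among NF-kB targets and cytokines 6 of 16 measured genes were called higher and 7 lower, beside 24.2% higher and 26.9% lower over all genes tested. The chemokines CXCL3 and CXCL8, the cytokine IL11 and the cyclooxygenase PTGS2 were higher, IL11 with 4141, 4276 and 4191 without tBHP and 14023, 12344 and 13352 with it. BIRC3, an apoptosis inhibitor and ubiquitin ligase, fell from 302 ± 21.1 to 60.3 ± 11.0 normalized counts (SD, n = 3), TNFAIP3, the A20 brake of NF-kB signalling, fell with a log2 change of -1.09, CCL2 at -1.01 and ICAM1 at -0.82. Of 19 interferon-stimulated genes 6 were called higher, with IRF7 at 1.37, and 4 lower, beside 24.2% and 26.9% of all genes tested. Of 27 measured secreted growth factors 14 were called higher and 8 lower, the latter a share near that of all genes. PDGFA, a mitogen for fibroblasts, measured 82.1, 87.7 and 90.8 without tBHP and 435, 346 and 452 with it, and FGF5 and FGF7 fell, with log2 changes of -1.26 and -0.92.

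**Figure D3:**
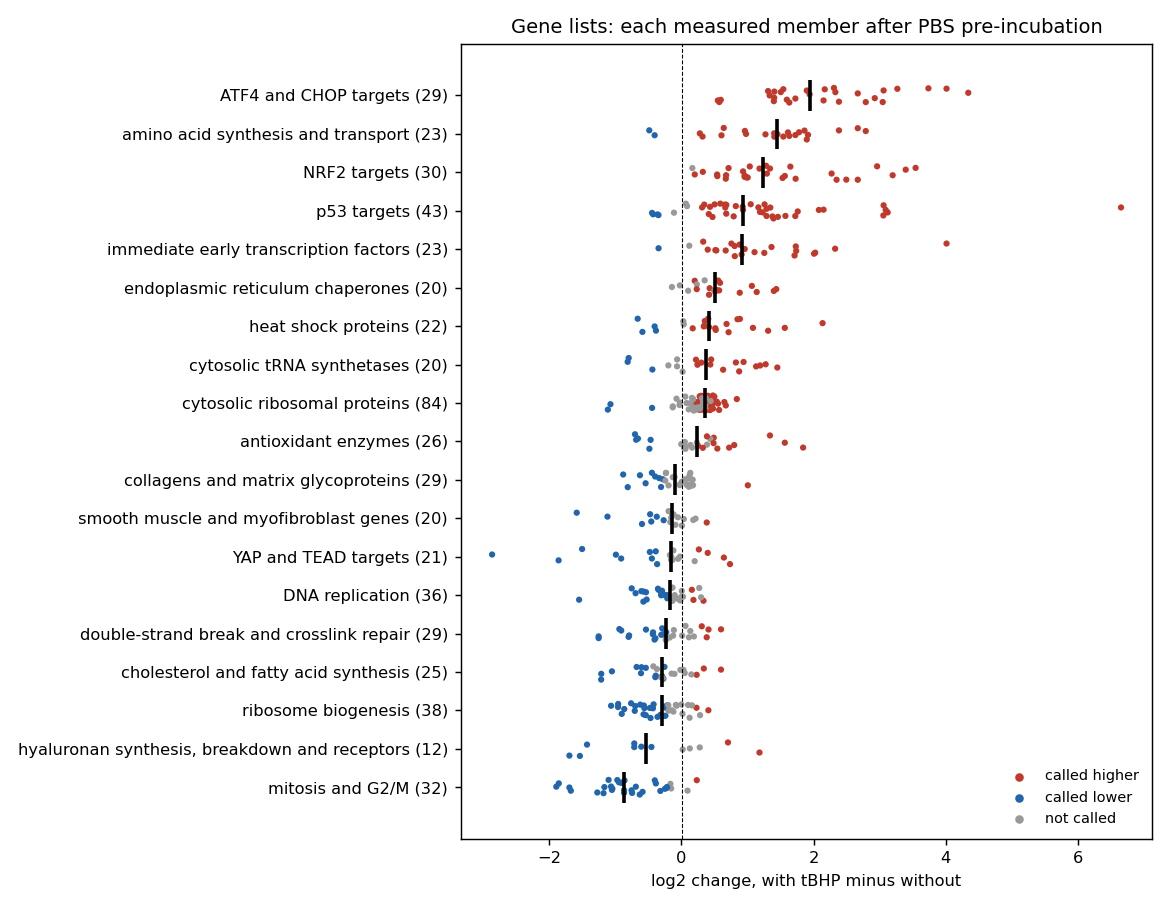
Log2 changes with tBHP of the measured members of 19 gene lists, 1 point per gene, with a black bar at each list's median, a dashed line at the median of all genes tested (0.00431) and the number of members measured in brackets. Points are red where called higher, blue where called lower and grey otherwise, and the medians run from 1.94 in ATF4 and CHOP targets to -0.863 in mitosis and G2/M genes.

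Genes of mitosis formed the list with the lowest median among those drawn. Of 32 measured mitosis and G2/M genes 28 were called lower and 1 higher, with a median log2 change of -0.86, and 11 fell by at least 1. ASPM, a protein of spindle poles, measured 4891, 5133 and 5207 without tBHP and 1190.4, 1554 and 1381 with it. CENPE, the kinetochore motor, measured 3055, 3132 and 3134 without tBHP and 656, 1066 and 905 with it, and DLGAP5, a spindle stabilizer, 2745, 2686 and 2657 without tBHP and 674, 971 and 922 with it. In these genes replicate 1 with tBHP was the lowest library, and the other 2 were also below every untreated one. CCNB1, cyclin B1, fell from 5618 ± 129 to 2506 ± 106 normalized counts (SD, n = 3), and MKI67, the proliferation antigen with the highest mean, from 16579 ± 307 to 11037 ± 275. CDC25B, the phosphatase that activates CDK1, was the 1 member called higher, by 0.23, but lost its call with no filter, with quantile normalization, without replicate 1 with tBHP, without any 1 of the 3 untreated libraries, and with GC and length trends removed, where its log2 change was -0.05. HMMR, a spindle protein that is also known as the hyaluronan receptor RHAMM, lies at chr5:163460203-163491945 and measured 1755, 1847 and 1837 without tBHP and 459.6, 636 and 599.6 with it.

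The cell cycle gene homology region (CHR), TTTGAA, and the CCAAT box are known promoter letters of genes expressed in G2 and M phases. The first was found for 17 of 27 mitosis genes with a window (63.0%) and for 13.8% of the genes tested, and the second, as CCAAT, for 23 (85.2%) and 43.5%. Stretches of 150 bases from the windows of CCNB2 and HMMR show both, with the letters in capitals and some matches overlapping. Further CCAAT matches of both genes lie outside these stretches.
CCNB2: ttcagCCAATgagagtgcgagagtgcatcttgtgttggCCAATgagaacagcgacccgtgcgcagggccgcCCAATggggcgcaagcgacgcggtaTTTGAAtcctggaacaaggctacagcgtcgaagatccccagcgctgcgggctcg
HMMR: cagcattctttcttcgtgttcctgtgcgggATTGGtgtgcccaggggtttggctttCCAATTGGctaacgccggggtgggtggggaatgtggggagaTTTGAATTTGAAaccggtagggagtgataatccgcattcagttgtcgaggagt
The first is chr15:59105021-59105170 and the second chr5:163460507-163460656, both on the plus strand. CCNB2, cyclin B2, changed by -0.40 (SE 0.08, adjusted p = 0.000274), and HMMR at -1.69 (SE 0.14, adjusted p = 2.36e-08).

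Over all genes tested 26.9% were called lower and 24.2% higher. Of 36 replication genes 18 were called lower and 3 higher, with a median of -0.18, and with GC and length trends removed 23 and 2, with a median of -0.28. CCNE2, cyclin E2, fell from 653 ± 36.3 to 225 ± 38.0 normalized counts (SD, n = 3), and RFC3, a subunit of the clamp loader, by a log2 change of -0.69. PCNA, the sliding clamp and a known p53 target, rose by 0.33 (SE 0.07), with 3711, 3706 and 3582 without tBHP and 4606, 4725 and 4533 with it. RRM2, a ribonucleotide reductase subunit and the most abundant member, fell, with a log2 change of -0.21. Of 29 genes of double-strand break and crosslink repair 15 were called lower and 4 higher, with a median of -0.24. BRIP1, a helicase of crosslink repair, fell, at -1.25 and FANCL, a ubiquitin ligase of the Fanconi pathway, at -1.25 on the log2 scale. Among kinase inhibitors and G1 cyclins 7 of 16 were called lower and 3 higher, and with GC and length trends removed 10 and 3: CDK6 fell, with a log2 change of -0.81 and RB1 at -0.73, while the inhibitor CDKN2B rose by 0.57. Replication-dependent histones, which are poorly caught by poly(A) selection and are close copies of each other, had 0 of 14 called higher and 3 lower, or 7 lower with GC and length trends removed.

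The 20 largest falls were taken among genes with a mean of at least 100 across the 18 libraries, no overlap between the groups and no clone name. They spanned log2 changes from -3.83 to -1.75, and 2 of them, ASPM and CENPE, were on the mitosis list. LRRN3, a neuronal leucine-rich repeat membrane protein at chr7:111091006-111125454 on the plus strand, measured 265, 256 and 236 without tBHP and 13.6, 18.5 and 18.6 with it, a 14.9-fold lower mean with tBHP. FAM111B, a protease, measured 1057, 983 and 982 without tBHP and 145, 217 and 229 with it, PHLDB2, an adaptor at the cell cortex, 845, 863 and 897 without tBHP and 196, 199 and 191 with it, and PTGFR, the receptor of prostaglandin F2 alpha, 211, 265 and 240.4 without tBHP and 46.5, 70.8 and 49.2 with it. EFNB2, a membrane ligand of Eph receptors, fell from 925 ± 41.5 to 237 ± 9.96 normalized counts (SD, n = 3). OXTR, the oxytocin receptor, fell, with a log2 change of -1.93, KCNQ5, a potassium channel, at -1.89, GCNT1, a glycosyltransferase of mucin-type chains, at -1.79, and ADAMTS15, a matrix protease, at -1.75. ZNF367 and CDCA7, which are expressed with the cell cycle, fell, at -1.91 and -1.87, and BMI1, a polycomb subunit, EEF1E1, a synthetase cofactor, and SGO2, a guard of centromere cohesion, at -1.84, -1.84 and -1.80 on the same scale. KIAA1456, a methyltransferase-like gene, fell, at -1.96. Of the clone-named genes, which this ranking leaves out, RP11-124N14.3 fell further than LRRN3, with 299, 360.2 and 315 without tBHP and 25.0, 3.27 and 16.4 with it, a log2 change of -4.71 (SE 0.64), and RP5-940J5.9 fell within the range, at -1.90.

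ANKRD1 and ARHGAP29 led the falls among targets of YAP and TEAD, factors that respond to tension and adhesion. ANKRD1, an ankyrin repeat cofactor, measured 686, 613 and 686 without tBHP and 73.8, 95.8 and 103 with it. Of 21 measured members of this list 9 were called lower and 4 higher, with a median of -0.16, and with GC and length trends removed 12 and 2, with a median of -0.32, beside 26.9% and 24.2% over all genes tested. The list holds genes of the pathway itself besides its targets, and the 4 called higher were WWTR1, TEAD3, TEAD2 and AJUBA. ARHGAP29, a GTPase activator for RhoA, fell from 2061 ± 47.0 to 572 ± 80.7 normalized counts (SD, n = 3), and CTGF, a matricellular protein with the highest mean, measured 33468, 33187 and 32857 without tBHP and 17854, 17749.5 and 17327 with it. WWTR1, which encodes the YAP relative TAZ, rose by 0.74 (SE 0.07). Of 20 contractile genes 7 were called lower and 1 higher, beside 26.9% and 24.2% over all genes tested. MYLK, myosin light chain kinase, fell, with a log2 change of -1.12, LMOD1, a leiomodin, at -1.58, and ACTA2, smooth muscle actin, at -0.47. With the trends with GC content and length removed, 17 of these 20 were called lower and 0 higher (limma).

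Of 29 collagens and matrix glycoproteins 9 were called lower, 1 was called higher and 19 were not called, with a median of -0.10, beside 26.9% lower and 24.2% higher over all genes tested. THBS1, thrombospondin 1, measured 158429, 156837 and 155931 without tBHP and 87112, 87970.0 and 81033 with it, and LOX, the collagen crosslinking enzyme, 23728, 24786 and 25301 without tBHP and 14229.7, 14356 and 13464 with it. COL7A1, the anchoring fibril collagen, was the 1 called higher, by 1.00. FN1, fibronectin, with 556651, 548228 and 558710.0 without tBHP and 644058, 610446 and 566147 with it, and COL1A1, with 267856, 259143 and 257346 without tBHP and 337705, 265930.0 and 256891 with it, were not called, though with those trends removed FN1 was called higher, by 0.35, and COL1A1 lower, by -0.21. With the trends with GC content and length removed 23 of the 29 were called lower. Of 22 matrix proteases and inhibitors 10 were called higher, among them MMP14 with 0.71 and MMP1 with 0.69, and 7 lower, among them ADAMTS5 with -0.89 and TIMP3 with -0.64, a share of falls near the 26.9% of all genes tested.

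Genes that make, cut or bind hyaluronan, the polymer given in the other pre-incubations, were more often called lower than higher. Of 12 measured 7 were called lower and 2 higher, with a median of -0.53, beside 26.9% lower and 24.2% higher over all genes tested. With GC and length trends removed 6 of 11 were called lower and 3 higher, and HAS2 lost its call. HMMR, among the 7, is counted in the mitosis list too. HAS3 may have passed the minimum mean only through libraries where it is high, so its fall adds nothing to the count. The count of 7 therefore says little about the list. HAS2, the hyaluronan synthase with the most signal, measured 11114, 11004 and 11110.2 without tBHP and 6889.6, 9005 and 8532 with it, a log2 change of -0.45 (SE 0.11, adjusted p = 0.00198), which was 0.03 with the GC and length trends removed. HAS3 fell from 19.5 ± 4.64 to 7.03 ± 3.27 normalized counts (SD, n = 3), CEMIP, a hyaluronan-degrading protein, from 292 ± 29.9 to 101 ± 21.9, and the hyaluronidase HYAL2 from 988 ± 42.9 to 606 ± 84.0. CD44, the main receptor, measured 33108, 33908 and 33259.6 without tBHP and 33227, 34294 and 34158 with it, a change of 0.02 (SE 0.06, adjusted p = 0.799), which quantile normalization turned to a called fall of -0.204 (adjusted p = 0.0151 from limma). UGDH, which makes the glucuronate precursor and is an NRF2 target too, rose by 1.18 (SE 0.09).

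Genes of translation went 2 ways. Of 84 cytosolic ribosomal protein genes 57 were called higher and 3 lower, with a median of 0.36, RPS27 rising by 0.84 and RPL12 by 0.67, and RPL39 lower with a log2 change of -1.11. Many of these genes have processed pseudogenes that share their reads. Of 38 ribosome biogenesis genes 24 were called lower and 2 higher, with a median of -0.29, GAR1, a protein of small nucleolar ribonucleoproteins, lower at -1.06 and WDR75, a ribosome assembly factor, at -0.96 on the log2 scale. EIF4EBP1, the repressor of the cap-binding factor eIF4E, rose by 1.17, among 56 measured genes with initiation factor names, of which 18 were called higher and 17 lower. These hold processed pseudogenes too, such as EIF2S2P4, called higher, and EIF3EP1, called lower. Mitochondrial ribosomal proteins had 12 of 78 called higher and 19 lower, and nuclear respiratory chain subunits 18 of 81 higher and 12 lower, beside 24.2% and 26.9% of all genes tested. With GC and length trends removed 30 of the 78 mitochondrial ribosomal proteins were called lower and 15 higher. Of 45 proteasome genes 22 were called higher and 9 lower, with a median of 0.14, and 21 and 5 without replicate 1 with tBHP.

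Metabolic and other lists showed smaller or mixed shifts. In autophagy and lysosome genes 17 of 30 were called higher and 4 lower, with SQSTM1, the receptor p62 and a known NRF2 target, at 4689.9, 4521 and 4363 without tBHP and 22089.6, 18559.5 and 19898 with it, and the kinase ULK1 up by 1.84. Of 25 genes of cholesterol and fatty acid synthesis 12 were called lower and 3 higher, and 18 and 2 with GC and length trends removed, with the sterol enzymes SC5D and MSMO1 lower with log2 changes of -1.21 and -1.21. Of 29 glycolysis and hypoxia genes 17 were called higher and 4 lower, and with the GC and length trends removed 10 and 8. Among 18 clock genes 5 were called higher, with ARNTL, which encodes BMAL1, up by 1.38, and 9 lower, with PER3 lower with a log2 change of -1.19. In polyamine metabolism SMOX, spermine oxidase, which makes hydrogen peroxide, rose by 1.93, and SAT1, which acetylates spermine, by 1.06, with 5 of 12 called higher and 5 lower. TXNIP, the thioredoxin inhibitor, rose by 0.66. MIR17HG, the host transcript of a microRNA cluster, fell from 49.1 ± 14.4 to 5.47 ± 4.97 normalized counts (SD, n = 3). Of the remaining lists, 9 of 21 genes of TGF-beta and BMP feedback were called higher and 5 lower (10 and 8 with GC and length trends removed), 3 of 11 Notch genes higher and 2 lower, 6 of 12 Kruppel-like factors higher and 1 lower, 4 of 20 splicing factors and CLK kinases higher and 6 lower (11 and 2 with GC and length trends removed), 4 of 24 small nucleolar RNA hosts higher and 9 lower, 6 of 9 stress-linked long noncoding RNAs higher and 2 lower, 3 of 5 arrestins of the TXNIP family higher and 0 lower, and 121 of 457 ZNF zinc finger genes higher and 96 lower (172 and 54 of 453 with those trends removed). These counts stand beside 24.2% higher and 26.9% lower over all genes tested. The 13 mitochondrially encoded mRNAs, several of which overlap, had 4 called higher and 5 lower.

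The change also followed base composition. Genes were cut into 5 bins of equal size by transcript GC content. In the bin with the lowest, up to 40.8%, 5.56% were called higher and 60.2% lower, with a median log2 change of -0.45, and in the bin with the highest, from 57.8% to 75.0%, 36.4% were higher and 4.32% lower, with a median of 0.28. Each treated library showed this, to a different extent. Against the mean of the untreated libraries the medians of the lowest bin were -0.609, -0.314 and -0.402 in replicates 1 to 3 with tBHP, and those of the highest bin 0.455, 0.169 and 0.206, while in the untreated libraries they stayed between -0.0433 and 0.0254. Replicate 1 with tBHP thus had the steepest slope. After cNSF the medians of the lowest and the highest bin were -0.427 and 0.30. After fNSF they ran from -0.254 in the lowest bin to 0.0804 in bin 4 and 0.0104 in the highest.

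Gene span, the length of the gene on the chromosome, went with the change too, from a median of 0.176 in the bin with the shortest genes, 53 to 9919 bp, to -0.162 in that with the longest, 97954 to 2298478 bp. Within 3 bins of GC content this difference was smaller. At the lowest GC the medians were -0.289 for the shortest of 3 bins of span and -0.385 for the longest, and at the highest GC 0.269 and 0.194. The part of base composition and span in the results was not tested. For the lists named above the removal of GC and length trends left the main counts at 29 of 29 higher for ATF4 and CHOP targets, 30 of 30 for NRF2 targets and 36 of 43 for p53 targets, with 30 of 32 mitosis genes lower. CENPE then fell, with a log2 change of -1.32 in place of -1.85, and GDF15 rose by 6.28.

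**Figure D4:**
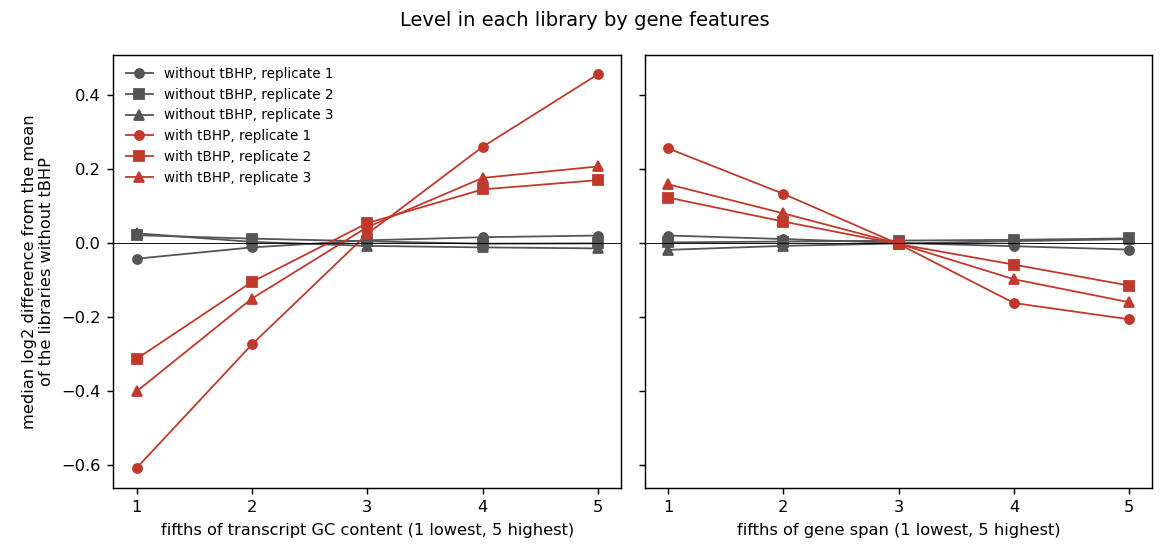
Median log2 difference of each of the 6 PBS libraries from the mean of the 3 without tBHP, over 5 bins of transcript GC content (left) and of gene span (right), grey without tBHP and red with it, with marker shapes for replicates. The grey lines stay near 0, and the red lines rise with GC content and fall with span, most steeply in replicate 1.

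The response was set beside the same contrast in cells given cNSF or fNSF, which share no library with it. Of the 3317 genes that rose in PBS cells 98.1% also had a positive log2 change after cNSF and 97.3% after fNSF, and of the 3678 that fell 98.8% and 97.6% had a negative one. Over all genes tested 87.7% and 82.7% had the same sign. The changes of these genes were smaller after fNSF, with medians of 0.53, 0.48 and 0.398 for the rises after PBS, cNSF and fNSF and of -0.606, -0.561 and -0.467 for the falls, which the choice of the genes by their change after PBS also favours. Replicates with tBHP were widest apart after fNSF, with a median SD of 0.221, and its replicate 2 lay at 11.1 on the first principal component, where the other 8 libraries with tBHP lay between 27.1 and 43.6. All 20 largest rises and all 20 largest falls, clone-named genes left out, were called in both hyaluronan groups. The clone-named RP11-124N14.3 changed by -2.11 after cNSF and -1.10 after fNSF, and RP5-940J5.9 by -0.54 and 0.13. GDF15 rose by 6.65 after PBS, 6.80 after cNSF and 6.40 after fNSF, and LRRN3 changed by -3.83, -3.46 and -3.66.

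The difference of the responses was tested gene by gene. Between PBS and cNSF cells limma called 0 genes, which is 0% of those tested, with 555 genes at an unadjusted p under 0.05 (4.06%), and edgeR and DESeq2 called 0. Between PBS and fNSF cells limma called 0 (0%), with 942 at an unadjusted p under 0.05 (6.88%), edgeR called 0 and DESeq2 called 4, which were CETN3, HAT1, HOXA3 and LUM. LUM, the matrix proteoglycan lumican, changed by -1.33 after PBS and -0.67 after fNSF, a difference of -0.653 (SE 0.134, adjusted p = 0.602 from limma). SRXN1, sulfiredoxin, an NRF2 target that repairs oxidized peroxiredoxins, had one of the smallest p-values against cNSF. It rose by 2.35 after PBS, 0.67 after cNSF and 0.86 after fNSF, with 6.76, 7.46 and 12.1 without tBHP and 53.3, 46.8 and 42.7 with it in PBS cells, and its difference from cNSF was 1.68 (SE 0.395, adjusted p = 0.999 from limma). BCL2A1, which fell after PBS, changed by -0.01 and 0.07 after the hyaluronans, and this difference was not called either.

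**Figure D5:**
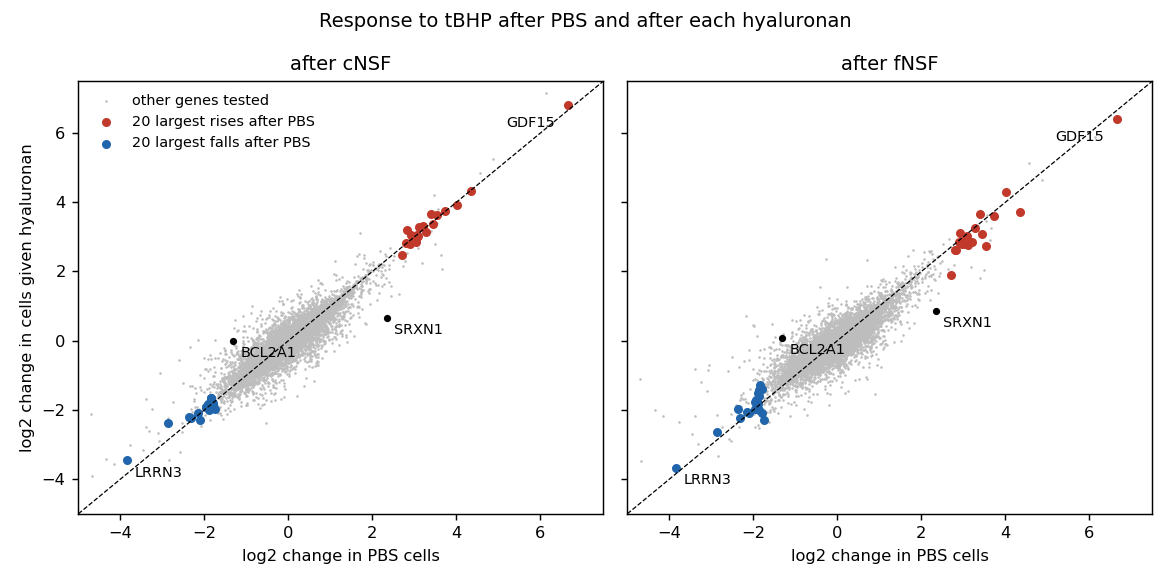
Log2 change with tBHP after PBS (horizontal axis) against that after cNSF (left) or fNSF (right) for each gene tested, with the 20 largest rises after PBS in red, the 20 largest falls in blue and a dashed line of equal change. The marked genes lie near the line, and SRXN1 and BCL2A1 (black) lie off it in both panels although neither difference was called.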

How the data were processed

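RNA was sequenced from 18 libraries of IMR90 cells, 3 in each of 6 groups, of which 6 entered the comparison. The deposited values are normalized counts, a signal the authors made by dividing each gene's reads by a DESeq2 size factor per library. Per the submitters' processing notes, the tools were Trimmomatic 0.32, STAR 2.5.2b, featureCounts of Subread 1.5.0-p3 and DESeq2 with GRCh38.p7; the strand setting is not given in the sources used here. Deposited columns of the authors' p-value, q-value and rank, whose comparison the file does not name, were not used. Whole reads, within 0.01 of a read, were recovered in 100% of the values from the worth of 1 read in each library, which gives the depths in the report; depth limits the precision of genes near the minimum.

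Values were taken as log2(value + 1), genes with a mean under 10 over the 18 libraries were left out, and limma 3.58.1 (R 4.3.3) was fitted with an intensity trend to all 18 libraries, 1 coefficient per group, two-sided, with Benjamini-Hochberg adjustment over the 13686 genes and a threshold of 0.05. All fold changes of deposited values are ratios of means, and log2 changes are on the log2(value + 1) scale, which understates those of low genes. GC and length trends were removed with splines of 5 degrees of freedom in the 12505 genes (91.4%) with both values. The scripts were tested on simulated data. Alternatives were edgeR 4.0.16 and DESeq2 1.42.0 on recovered reads, other pseudocounts, filters and scalings, only the compared groups, library weights, a replicate block and each of the 6 libraries left out.

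The members and gene lists were chosen with earlier results of these data known. Genes named were the 20 largest rises and 20 largest falls with an adjusted p under 0.05, a mean of at least 100, a symbol that is no clone name and no overlap between groups, up to 4 called members of each list in each direction with its most abundant member, and up to 10 genes by smallest p in each difference of responses. All others named, and the promoters printed, were chosen after their values or matches were seen. Sequences are from RefSeq, GRCh38.p14. Same-numbered libraries with and without tBHP had correlations of deviations of 0.087, 0.026 and 0.069, so the numbers were not taken as pairs. Some genes are not reported here.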

Additional observations from a re-analysis of the deposited data

How the results depend on the processing

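Under each alternative run, the counts of genes that rose (3017 to 4058 apart from single libraries left out) and fell (3223 to 3906) stayed within 1.5 times of 3317 and 3678, and so did the members called higher of the ATF4 and CHOP list (29 to 29), the NRF2 list (26 to 30) and the p53 list (34 to 37). Large changes depended more on the settings. With a minimum mean of 50, 351 genes rose and 450 fell by a log2 change of at least 1, with no filter 1140 fell, and with GC and length trends removed 385 fell. Leaving out 1 of the 6 libraries gave 2775 to 3090 genes higher, 3183 to 3649 lower, 482 to 578 higher by at least 1 and 610 to 821 lower by at least 1; the lowest of the falls came without replicate 1 with tBHP. The difference of response between PBS and cNSF cells stayed at 0 called genes, and that between PBS and fNSF cells, 0 by limma, was 4 by DESeq2 and 0 to 9 without a single library, 1 without replicate 1 with tBHP after PBS and 9 without replicate 3 with tBHP after fNSF.

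A replicate block gave 3436 genes higher and 3792 lower, with GC and length trends removed as well 3379 and 3906, and 385 of the latter by at least 1. It changed no call among the 164 genes whose values are given unless those trends were removed too. Of the 3101 values of these genes under the alternatives, 3061 kept direction and call, 19 lost the call, 6 gained it and 15 changed sign. With the trends removed, with or without the block, SLC38A2 changed by 0.0261, GLRX2 by 0.0391, MT2A by -0.00156, CDC25B by -0.052, COL1A1 by -0.206 and HAS2 by 0.0332. Quantile normalization gave 0.0 for COL1A1 and -0.204 for CD44, and single libraries left out gave COL1A1 -0.000206 to 0.197. The cause was not tested. Depth limits genes near the minimum of 10.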
